A study of Mus musculus with 7 samples.

Results

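The genes described here encode the subunits of RNA polymerases I, II, and III, measured in CD8+ T cells treated with leukemic or healthy small extracellular vesicles (sEVs). They were found by symbol, as every row beginning with Polr1, Polr2, or Polr3 and a letter, without pseudogenes, provided that its counts averaged 5 or more over the 7 libraries. This gave 28 genes of the 12623 that passed the same minimum, comprising 5 Polr1, 13 Polr2, and 10 Polr3 genes. No gene was lost to the minimum, since the lowest mean was 38.1 counts (*Polr3gl*), and the pseudogene *Polr2k-ps* had 0 counts. The symbol rule reads no fold change or test, although the genes were picked for description with earlier results of these data known.

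CD8+ T cells were sorted by flow cytometry from spleens of mice of the strain Foxp3 YFP/cre, in which YFP and Cre are made from the *Foxp3* locus of regulatory T cells, and all 7 cultures share this background. In 4 cultures the cells received control sEVs (HCME-sEVs), from the microenvironment of healthy spleens. In the other 3 they received leukemia sEVs (LME-sEVs), from spleens of leukemic Eμ-*TCL1* mice, whose transgene is driven in B cells by immunoglobulin heavy chain elements. Treatment lasted 48 hours at 100 µg/mL for both groups by the sample annotation, whereas the methods speak of the amounts found in each kind of spleen. For CD8+ T cells isolated by negative selection, the methods describe plate-bound anti-CD3 with IL2 and anti-CD28. For sorted cells used on microarrays they name IL2 without these antibodies. They do not say which of these conditions held for the 7 cultures here. By the methods, young adult mice of both sexes were used, with age and sex matched inside each experiment. A legend in the paper gives the group sizes the other way round from the sample titles. The groups here follow the titles, and an exchange of the groups would turn the sign of every fold change. Whether cultures came from separate animals was not given in the sources used here, so p-values measure the spread between these libraries, which may be technical.

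RNA polymerase I makes the precursor of the large ribosomal RNAs, RNA polymerase II makes messenger RNAs and many small nuclear RNAs, and RNA polymerase III makes transfer RNAs, 5S ribosomal RNA, and other short RNAs. Each enzyme has a core of a largest and a second-largest subunit that form the active site, an assembly pair, and small subunits common to all 3 enzymes, with a stalk at the periphery. Polymerases I and III carry additional subunits that resemble general factors of polymerase II. Resting T cells increase the output of all 3 enzymes when they are activated and grow.

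Libraries held between 3689831 and 5030522 counts of 3′ ends, with a median of 4166392 for HCME-sEVs and 4402123 for LME-sEVs, and a floor of 3 counts was equal to 0.596 to 0.813 CPM (counts scaled to a common library size). Levels are CPM after TMM normalization, which allows for differences in library composition, and fold changes are LME-sEVs over HCME-sEVs. A gene is called when the quasi-likelihood test of edgeR gave it an FDR under 0.05, by the Benjamini-Hochberg method over the 12623 genes. The 8 T-cell markers were detected, with a summed level of 1868 to 2083 CPM with HCME-sEVs and 2140 to 2469 CPM with LME-sEVs. *Cd4* had at most 3 counts, *Foxp3* at most 1, and *Cd40lg* 3 to 5 in any library. *Zbtb7b*, the remaining marker of CD4+ and regulatory T cells, had 22, 53, 31, and 25 counts with HCME-sEVs and 55, 62, and 82 with LME-sEVs. It makes up most of the summed level of these 4 markers. Summed levels with HCME-sEVs and LME-sEVs were 10.5 to 11.8 and 10.3 to 12.4 CPM for 8 B-cell markers, 6.26 to 14.4 and 15.3 to 17.3 CPM for 4 markers of CD4+ and regulatory T cells, and 2.53 to 5.06 and 6.79 to 8.61 CPM for 9 myeloid markers. They were 5.54 to 35.2 and 29.1 to 46.1 CPM for 7 basophil and mast-cell markers, and 72.8 to 180 and 155 to 200 CPM for 8 erythroid and platelet markers, and no marker was at 0 in every library. The part of these cells in the results below was not tested, and in such bulk samples fewer cells of a type and less RNA per cell cannot be told apart.

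With LME-sEVs, 3 of the 28 subunit genes were called lower and 0 were called higher. They were *Polr1b*, the second-largest subunit of polymerase I, *Polr2f*, a small subunit common to the 3 enzymes, and *Polr3d*, a subunit of polymerase III alone, so that each symbol class held 1. Among all tested genes, 5.21% were called lower and 3.75% higher. The 3 calls are 10.7% of the members, and 0 members had a positive fold change with an unadjusted p under 0.05 or were called higher by DESeq2. The number called lower was 1 without LME-sEV library 2 and 5 without HCME-sEV library 1 or 3. Over all genes, calls in either direction were 391, 962, and 1305 in these fits, against 1131 with the 7 libraries. None of the 28 was past the fold change cutoff of the study, an FDR under 0.05 with a log2 fold change beyond 1, which 1.28% of all tested genes passed.

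Most of the other subunit genes had small negative fold changes that did not pass the test. The log2 fold change was below 0 for 24 of the 28 (85.7%), against 48.5% of all tested genes, and its median was -0.19, against 0.0095 over all of them. An unadjusted p under 0.05 was reached by 12 members, each of them with a negative fold change (42.9%, against 12.3% of all tested genes with a negative one). The log2 fold changes ran from -0.71 (*Polr1b*) to 0.12 (*Polr3gl*). The medians of the 3 classes lay close together, at -0.18 for Polr1, -0.20 for Polr2, and -0.15 for Polr3 genes, and differences between classes were not tested.

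**Figure D1:**
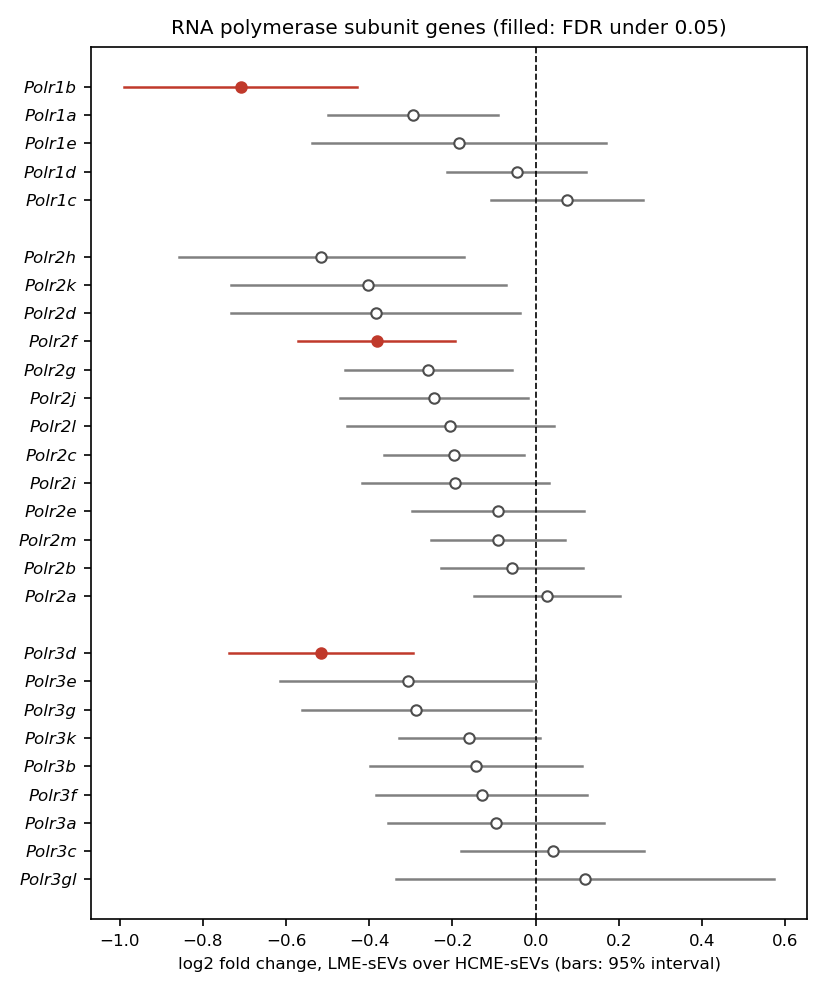
Log2 fold change (LME-sEVs over HCME-sEVs, x axis) of 27 of the 28 subunit genes, in rows by class and ordered within it, with 95% intervals from edgeR's quasi-likelihood fit. The 3 filled points, *Polr1b*, *Polr2f*, and *Polr3d*, had an FDR under 0.05, and 23 of the 27 points lie left of 0.

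Separation of the libraries was less common than the shared sign. Every LME-sEV library was below every HCME-sEV library for 4 members (*Polr1b*, *Polr2f*, *Polr2g*, and *Polr3d*), or 14.3%, and the reverse held for 0 members. Over all tested genes these shares were 10.8% and 9.49%, so the first share was near the background. Taking each library on its own, 22, 23, and 23 of the 28 genes were below the mean of the HCME-sEV libraries in LME-sEV libraries 1, 2, and 3. For HCME-sEV libraries 1 to 4, set against the mean of the other 3, the numbers were 9, 13, 19, and 16. The 28 levels summed to between 2303 and 2529 CPM in HCME-sEV libraries and between 2088 and 2189 CPM in LME-sEV libraries. HCME-sEV library 1 had the highest sum of its group, and no LME-sEV library reached the lowest HCME-sEV library. For the Polr1 genes alone the sums overlapped, with 558 to 654 CPM and 548 to 578 CPM, whereas those of the Polr2 genes (1241 to 1337 against 1079 to 1181 CPM) and of the Polr3 genes (482 to 539 against 440 to 451 CPM) did not. Most of the Polr1 sum came from *Polr1d* and *Polr1c* (means of 295 and 178 CPM with HCME-sEVs), which polymerase III also contains. The 3 genes of polymerase I only had log2 fold changes of -0.71 (*Polr1b*), -0.29 (*Polr1a*), and -0.18 (*Polr1e*).

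**Figure D2:**
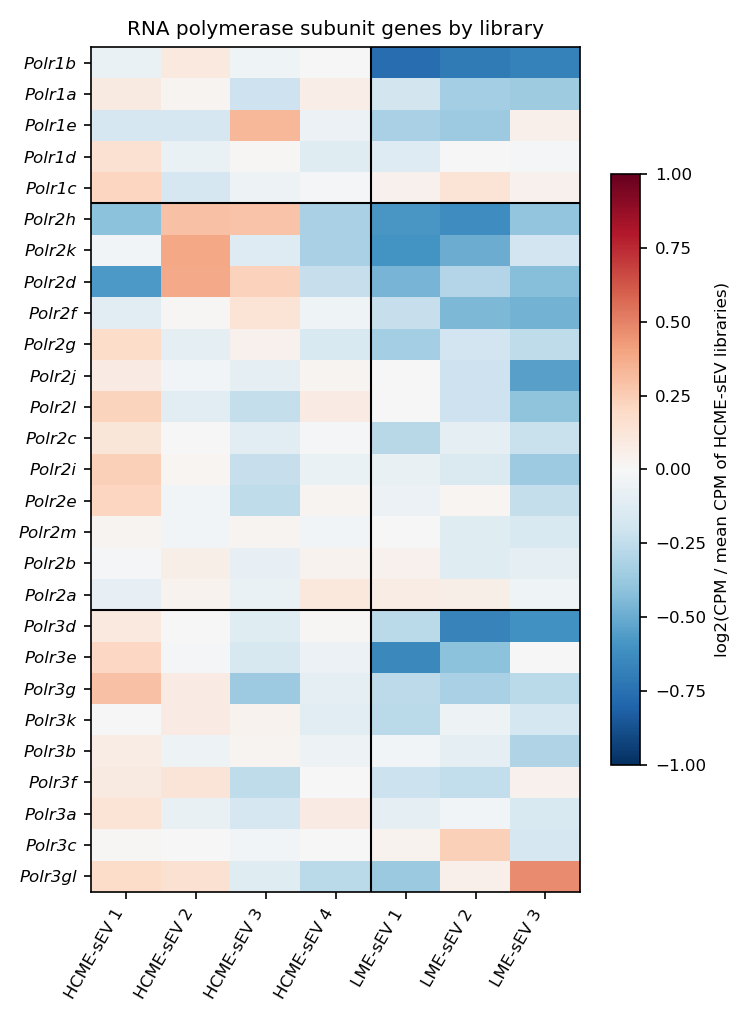
Log2 ratio of the level (CPM) in each library to the mean of the 4 HCME-sEV libraries, for 27 of the 28 genes (rows, by class) and 7 libraries (columns), with blue below and red above that mean. The LME-sEV columns are mostly blue, with 22, 23, and 23 of all 28 genes below the mean, and HCME-sEV libraries 1 and 4 are also blue for *Polr2h* and *Polr2d*.

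The largest subunits, which form the active site together with the second-largest ones, were not called. *Polr1a*, of polymerase I, was at 81.0, 77.5, 65.9, and 79.6 CPM in HCME-sEV libraries 1 to 4 and at 67.0, 60.003, and 59.5 CPM in LME-sEV libraries 1 to 3. LME-sEV library 1 was just above HCME-sEV library 3, so the groups overlapped. Its log2 fold change was -0.29 (standard error 0.098, FDR = 0.0645). It was called, with an FDR of 0.0203, only when HCME-sEV library 3 was left out. *Polr2a*, whose protein carries the heptad repeats of polymerase II that are phosphorylated during transcription, was at 98.5, 107, 100, and 113 CPM with HCME-sEVs and at 110, 109, and 101 CPM with LME-sEVs. Its libraries were intermixed, with a log2 fold change of 0.028 and a 95% interval from -0.15 to 0.20. *Polr3a*, of polymerase III, was at 28.9, 25.1, 23.5, and 27.9 CPM with HCME-sEVs and at 24.8, 25.8, and 23.7 CPM with LME-sEVs, overlapping, with an interval of the log2 fold change from -0.36 to 0.17.

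Of the second-largest subunits, that of polymerase I differed and the others were not called. *Polr1b* lies on chromosome 2 of GRCm38 from 129100995 to 129126594 (GENCODE vM21, as for all genes here). It was at 23.1, 25.8, 23.5, and 24.2 CPM in HCME-sEV libraries 1 to 4 and at 14.3, 14.8, and 15.1 CPM in LME-sEV libraries 1 to 3. The groups did not overlap, and the closest libraries were at 23.1 and 15.1 CPM. With 53 to 104 counts per library, counting error is larger than the spread within each group. That spread is therefore no measure of how far apart the groups lay. The log2 fold change was -0.71 (standard error 0.13, FDR = 0.00247), a ratio of 0.612, and *Polr1b* was called in 15 of 15 alternative settings, with values between -0.73 and -0.66. *Polr2b* averaged 118 ± 5.15 CPM in 4 libraries and 113 ± 6.78 CPM in 3 (SD), and *Polr3b* averaged 27.8 ± 1.15 CPM and 25.2 ± 2.45 CPM. Their 95% intervals of the log2 fold change were -0.23 to 0.11 and -0.40 to 0.11.

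**Figure D3:**
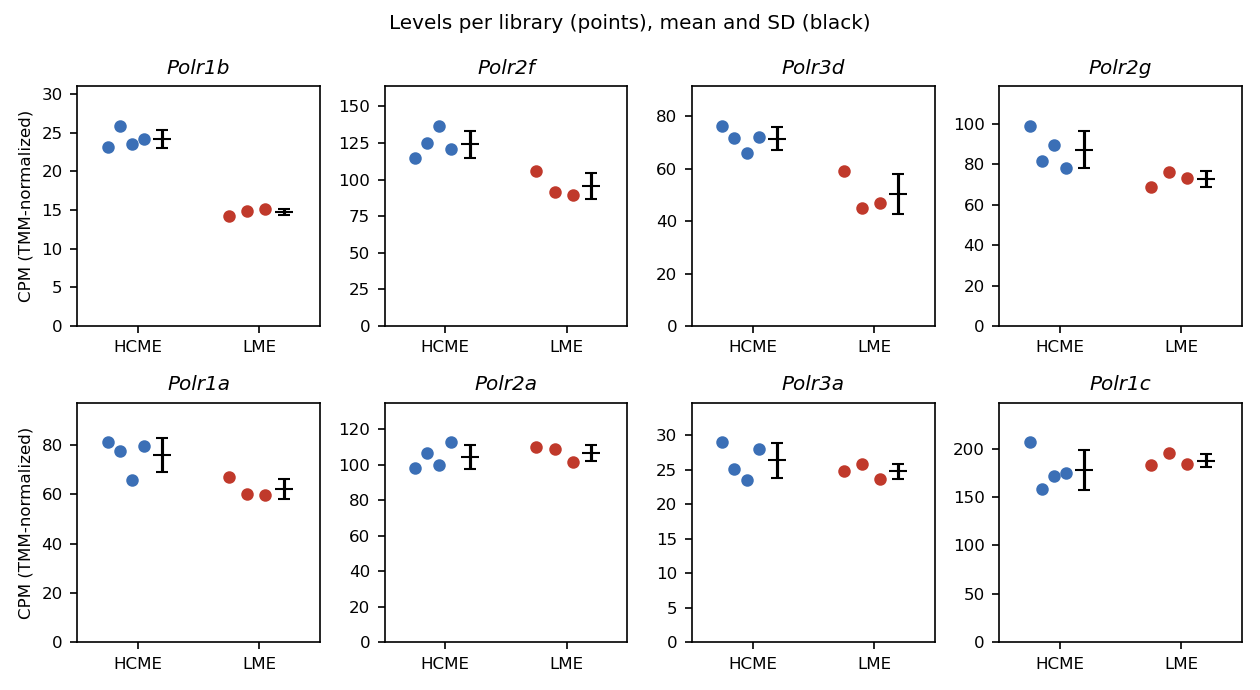
Level (CPM, y axis from 0) of 8 subunit genes in the 4 HCME-sEV (blue) and 3 LME-sEV (red) libraries, with mean and SD in black. In the upper row (*Polr1b*, *Polr2f*, *Polr3d*, *Polr2g*) the groups do not overlap, and in the lower row (*Polr1a*, *Polr2a*, *Polr3a*, *Polr1c*) they do.

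The ratio of counts of 2 subunits within a library does not depend on the scaling between libraries. *Polr1b* over *Polr1a* was 0.286, 0.333, 0.356, and 0.304 in HCME-sEV libraries 1 to 4 and 0.213, 0.247, and 0.254 in LME-sEV libraries 1 to 3. The groups did not overlap, although *Polr1a* was itself lower on average. The mean ratio was 0.320 ± 0.0312 (SD, n = 4) and 0.238 ± 0.0221 (SD, n = 3), a log2 difference of -0.43. Its two-sided exact permutation p was 0.0286, the smallest that the 35 divisions of 7 libraries into 4 and 3 can give, and 0.114 after Benjamini-Hochberg adjustment over 4 ratios. For polymerase II, *Polr2b* over *Polr2a* was 1.13 ± 0.0487 (SD, n = 4) and 1.06 ± 0.0580 (SD, n = 3; exact permutation p = 0.200). For polymerase III, *Polr3b* over *Polr3a* was 1.06 ± 0.106 (SD, n = 4) and 1.02 ± 0.0741 (SD, n = 3; exact permutation p = 0.629). These ratios were chosen after the levels had been seen.

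**Figure D4:**
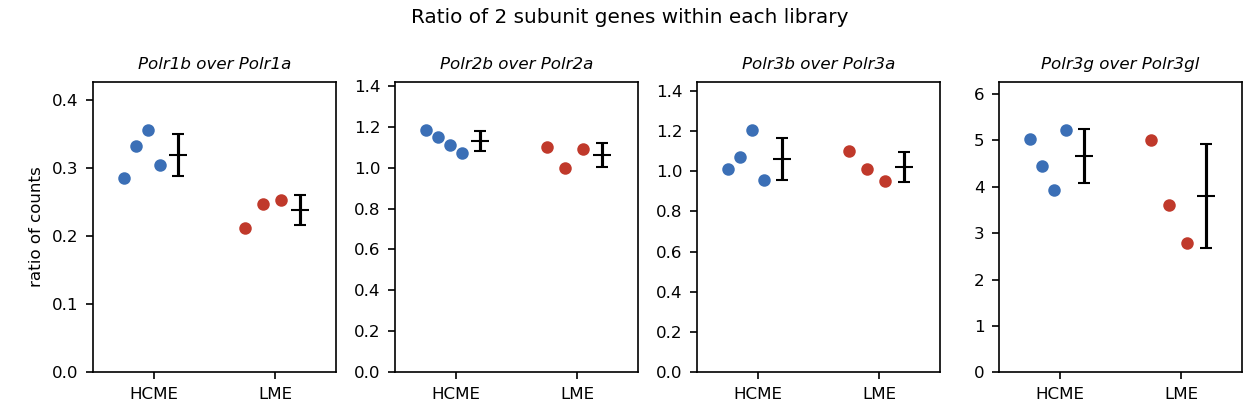
Ratio of counts of 2 subunit genes within each library (y axis from 0), with HCME-sEV libraries in blue, LME-sEV libraries in red, and mean and SD in black. Only for *Polr1b* over *Polr1a*, of the 4 ratios, do the groups not overlap, with 0.286 to 0.356 against 0.213 to 0.254.

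The 5 subunits that all 3 enzymes contain were *Polr2e*, *Polr2f*, *Polr2h*, *Polr2k*, and *Polr2l*. Each had a negative fold change, with a median of -0.38, and 1 of 5 was called. *Polr2f*, whose protein helps to hold the largest subunit in the core, lies on chromosome 15 from 79141009 to 79151774. It was at 115, 125, 137, and 121 CPM in HCME-sEV libraries 1 to 4 and at 106, 91.2, and 89.6 CPM in LME-sEV libraries 1 to 3. The groups did not overlap, and LME-sEV library 1 was the closest to the other group. On the log2 scale *Polr2f* fell by 0.38 (standard error 0.090, FDR = 0.0112). The FDR rose to 0.0782 without LME-sEV library 2 and to 0.0863 without LME-sEV library 3, where the call was lost.

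*Polr2h* had a larger but less even difference than *Polr2f*. It was at 25.5, 41.6, 41.3, and 27.0 CPM in HCME-sEV libraries 1 to 4 and at 22.6, 22.0, and 25.8 CPM in LME-sEV libraries 1 to 3. HCME-sEV libraries 2 and 3 were high, whereas libraries 1 and 4 were near the LME-sEV level. With a log2 fold change of -0.52 and a standard error of 0.16, its FDR was 0.0544. The basophil protease *Mcpt8* had 3, 35, 24, and 9 counts in HCME-sEV libraries 1 to 4 and 50, 71, and 36 in LME-sEV libraries 1 to 3. *Cpa3*, of the same marker list, had 16, 70, 34, and 26 and then 29, 40, and 32 counts, so its groups overlapped. Of the 6 tested markers of this list, 3 were called higher, against 3.75% of all tested genes. Other lists also held such calls, with 3 of 6 erythroid and platelet markers and 2 of 8 T-cell markers. The 1 tested marker of CD4+ and regulatory T cells was called higher, and 0 of 3 B-cell markers and 0 of 1 myeloid marker were. HCME-sEV libraries 2 and 3 also had the most counts of their group for *Zbtb7b*, of another list, but not for every marker. The part of any of these cell types in the spread of *Polr2h* was not tested. *Polr2k*, the smallest subunit, which binds zinc, had -0.40 (FDR = 0.125), with 25.01 CPM in the highest LME-sEV library and 22.8 CPM in the lowest HCME-sEV library. *Polr2l*, another small subunit that binds zinc, had -0.20 (FDR = 0.329). *Polr2e*, which contacts DNA ahead of the active site, had -0.091 (FDR = 0.643).

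The assembly pair, around which the core of each enzyme is built, is *Polr1c* and *Polr1d* in both polymerases I and III, and neither was called. *Polr1d* was the most abundant of the 28 genes by 3′ counts, with a mean of 295 CPM for HCME-sEVs (SD 24.8, n = 4) and 286 CPM for LME-sEVs (SD 13.6, n = 3). *Polr1c* was at 206, 158, 172, and 175 CPM with HCME-sEVs and at 183, 195, and 184 CPM with LME-sEVs, where HCME-sEV library 1 was the highest and the groups overlapped. Their 95% intervals of the log2 fold change were -0.21 to 0.12 and -0.11 to 0.26. The counterparts in polymerase II, *Polr2c* and *Polr2j*, had log2 fold changes of -0.20 (FDR = 0.146) and -0.24 (FDR = 0.182). *Polr2j* was at 85.0 CPM in LME-sEV library 1 and at 58.4 CPM in LME-sEV library 3, a wider spread than that of its HCME-sEV libraries, which lay between 79.8 and 90.3 CPM.

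The stalk, a pair of subunits outside the core that meets initiation factors and the emerging RNA, had negative fold changes without a call. In polymerase II it consists of *Polr2d* and *Polr2g*. *Polr2d* was at 27.7, 53.7, 48.3, and 35.2 CPM in HCME-sEV libraries 1 to 4 and at 29.9, 33.7, and 30.6 CPM in LME-sEV libraries 1 to 3. As for *Polr2h*, HCME-sEV libraries 2 and 3 were high, and HCME-sEV library 1 was below every LME-sEV library. Its log2 fold change was -0.38 (FDR = 0.169). The partner *Polr2g* was at 99.0, 81.6, 89.6, and 78.5 CPM with HCME-sEVs and at 68.9, 76.4, and 73.1 CPM with LME-sEVs. Its groups did not overlap, by a margin of 78.5 against 76.4 CPM, and the log2 fold change of -0.26 had an FDR of 0.105.

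The subunits that only polymerase III has include the 10 Polr3 genes, of which 1 was called. *Polr3d* and *Polr3e* encode a pair on the lobe of the enzyme that acts in initiation and termination. *Polr3d* lies on chromosome 14 from 70438757 to 70443447 and was at 76.4, 71.7, 65.9, and 72.2 CPM in HCME-sEV libraries 1 to 4 and at 59.2, 44.9, and 46.9 CPM in LME-sEV libraries 1 to 3. The groups did not overlap, and LME-sEV library 1 was between the other LME-sEV libraries and the HCME-sEV group. Its log2 fold change was -0.52 (standard error 0.11, FDR = 0.00452), and the call held in 14 of 15 alternative settings, the exception being without LME-sEV library 2, where the FDR was 0.0515. *Polr3e* was at 33.0, 28.4, 25.6, and 27.5 CPM with HCME-sEVs and at 18.3, 21.6, and 28.7 CPM with LME-sEVs. LME-sEV library 3 fell among the HCME-sEV libraries, and the log2 fold change of -0.31 had an FDR of 0.224.

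*Polr3c*, *Polr3f*, and *Polr3g* encode the 3 subunits that open the promoter with the initiation factors. *Polr3c* was at 49.4, 49.2, 48.0, and 49.1 CPM with HCME-sEVs and at 50.04, 57.8, and 43.6 CPM with LME-sEVs. The HCME-sEV libraries were nearly equal, and those with LME-sEVs lay on both sides of them. *Polr3f* had a log2 fold change of -0.13 (FDR = 0.573), and *Polr3g* had -0.29 (FDR = 0.198). *Polr3gl* encodes a paralogue that takes the place of the *Polr3g* product in the enzyme, and the *Polr3g* form is the one known from growing and undifferentiated cells. *Polr3gl* was the least abundant member, at 9.88, 9.63, 8.002, and 7.22 CPM with HCME-sEVs and at 6.73, 8.99, and 12.0 CPM with LME-sEVs. Its groups overlapped, with a 95% interval of the log2 fold change from -0.34 to 0.57. *Polr3g* over *Polr3gl* counts were 4.66 ± 0.585 (SD, n = 4) and 3.80 ± 1.12 (SD, n = 3; two-sided exact permutation p = 0.229), and in LME-sEV libraries 1 to 3 the ratio was 5, 3.60, and 2.79.

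The remaining members differed little. *Polr3k* and *Polr2i*, which help the enzyme to cleave RNA when it stalls, had log2 fold changes of -0.16 (FDR = 0.256) and -0.19 (FDR = 0.302). *Polr1e*, a polymerase I subunit that resembles a polymerase II general factor, had -0.18 (FDR = 0.568) and between 49 and 88 counts per library. *Polr2m* encodes a protein that associates with polymerase II and is no core subunit. Its mean was 164 CPM for HCME-sEVs (SD 3.37, n = 4) and 154 CPM for LME-sEVs (SD 8.74, n = 3), with an FDR of 0.531 in edgeR's test.

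The counts used older symbols for 4 other subunits, which the symbol rule does not reach. *Cd3eap*, the partner of *Polr1e* in polymerase I, was at 73.2, 86.4, 60.8, and 78.2 CPM in HCME-sEV libraries 1 to 4 and at 56.0, 41.1, and 42.8 CPM in LME-sEV libraries 1 to 3. The groups did not overlap, and the log2 fold change was -0.69 (standard error 0.12, FDR = 0.00167). *Cd3eap* shares exon sequence with *Ercc1* on the opposite strand, and whether counting used the strand is not given in the sources used here, so its counts are uncertain. *Twistnb*, of the polymerase I stalk, and *Crcp*, of the polymerase III stalk, were lower in each LME-sEV library than in any HCME-sEV library without being called, with log2 fold changes of -0.23 (FDR = 0.0976) and -0.35 (FDR = 0.131). For *Twistnb* the closest libraries were at 226.0 and 226.2 CPM. *Znrd1*, the polymerase I counterpart of *Polr2i*, had 0.071 (FDR = 0.700).

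Genes that act with the polymerases were taken from lists chosen by function. Over 8 lists, the 4 subunits above included, 10 of 89 tested genes (11.2%) were called lower and 0 higher, against 5.21% and 3.75% of all tested genes, with a median log2 fold change of -0.13. The counts for single lists below are to be read against the same background. The number called lower was 5 with scaling by library size only, 6 without HCME-sEV library 2 or 4, 4 without LME-sEV library 2, and 3 without LME-sEV library 3. Over all genes, calls in either direction were 1079, 723, 918, 391, and 458 in these fits, against 1131 in the main one. Of the 8 initiation factors of polymerase I, 3 were called. *Ubtf*, which binds ribosomal DNA, was at 121, 138, 141, and 131 CPM with HCME-sEVs and at 107, 108, and 94.2 CPM with LME-sEVs (log2 fold change -0.37, FDR = 0.0112). *Rrn3*, which brings polymerase I to the promoter, had -0.33 (FDR = 0.0425), and *Taf1d*, of the promoter selectivity complex, had -0.37 (FDR = 0.0209). *Taf1d* hosts small nucleolar RNAs and its exons overlap other genes on both strands, so its counts are uncertain. The other 5 of this list ran from -0.077 (*Taf1c*) to 0.16 (*Ttf1*).

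Of the 17 general factors of polymerase II, 1 was called, *Gtf2h1*, a subunit of the factor that opens promoter DNA (log2 fold change -0.32, FDR = 0.0245). The 22 pausing and elongation factors held 2 calls, *Leo1* of the PAF complex (-0.42, FDR = 0.0333) and *Larp7* (-0.26, FDR = 0.0358), which binds the RNA *Rn7sk*. Of 11 assembly factors 1 was called, the ATPase *Ruvbl1* (-0.32, FDR = 0.0479), which DESeq2 did not call. Among the 16 initiation factors of polymerase III with its repressor *Maf1*, 0 were called, 4 had an unadjusted p under 0.05, and 0 were called by DESeq2. They ran from -0.37 (*Snapc4*) to 0.26 (*Snapc3*), and *Maf1* had 0.14 (FDR = 0.545). The mitochondrial RNA polymerase *Polrmt*, a single-subunit enzyme unrelated to the others, had -0.064 (FDR = 0.866), and 0 of the 6 mitochondrial genes were called, 1 of them with an unadjusted p under 0.05 and 0 by DESeq2.

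Of 8 RNAs that polymerase III makes, 5 had enough counts and 2 were called, both past the fold change cutoff of the study. *Rn7sk*, which holds the kinase that releases paused polymerase II, was at 174, 126, 136, and 97.3 CPM with HCME-sEVs and at 57.8, 66.3, and 50.8 CPM with LME-sEVs (log2 fold change -1.19, FDR = 7.03e-05). *Rpph1*, the RNA of ribonuclease P, had -2.10 (FDR = 0.00231). It had only 26, 41, 23, and 22 counts in HCME-sEV libraries 1 to 4 and 11, 6, and 4 in LME-sEV libraries 1 to 3. The lowest of these is near the floor of 3 counts, so the size of this fold change is imprecise. Libraries of this kind start from poly(A) tails, which these RNAs mostly lack, so their counts need not follow their amount in the cell. *Rn7sk* has near-identical copies elsewhere in the genome, and *Rpph1* overlaps an exon of *Ccnb1ip1*. The other 3, *Vaultrc5*, *Rny3*, and *Rny1*, had log2 fold changes of -0.46, -0.24, and -0.18 with an FDR of 0.449 or more.

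**Figure D5:**
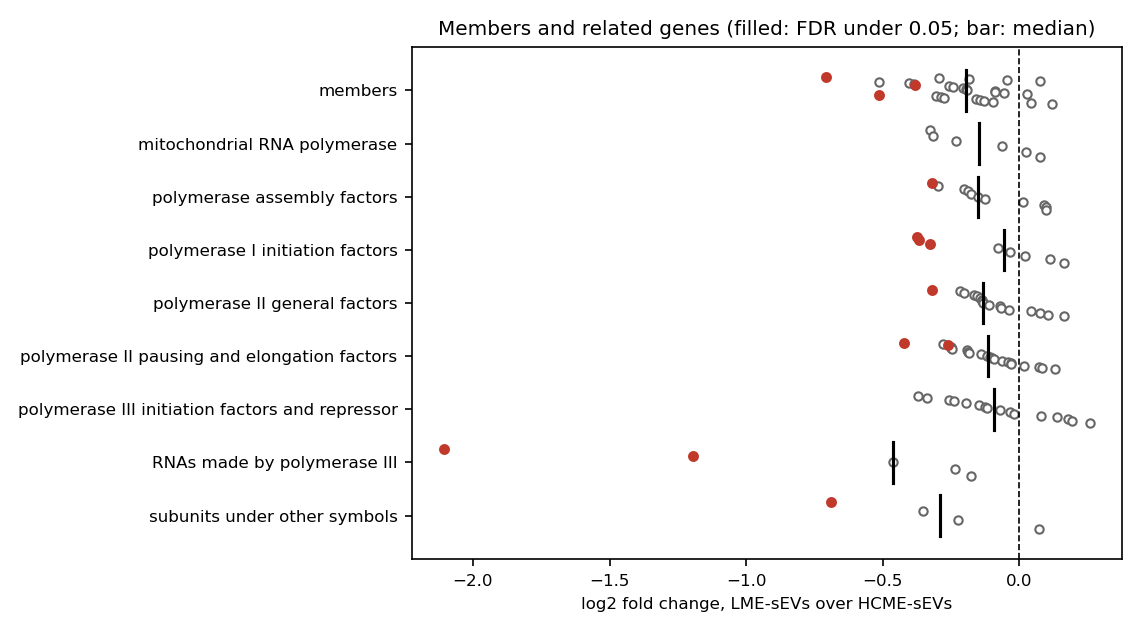
Log2 fold change (LME-sEVs over HCME-sEVs, x axis) of the 28 members and of the 8 related lists (rows), 1 point per gene, with the median of each list as a bar. The filled points had an FDR under 0.05, namely 3 of 28 members and 10 of 89 related genes, and each of them lies left of 0.

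Reads could be shared with other genes for some members. Exons of 10 members overlap exons of a gene on the opposite strand, and of 0 members those of a gene on the same strand. The opposite gene had counts for 7 of them, *Polr2b*, *Polr2c*, *Polr2h*, *Polr2i*, *Polr2j*, and *Polr3b* included, so that these levels are uncertain. *Polr1b* and *Polr3d* had no such neighbor, and that of *Polr2f*, *1700088E04Rik*, had 0 counts. A near-identical 3′ end (95% identity over at least 200 of the last 300 bases) was found for *Polr1d*, *Polr2c*, and *Polr2h*, in each case in a predicted gene with 0 counts.

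Promoter sequences in RefSeq's annotation of GRCm38.p6, from 250 bases before to 50 bases after a start site, were at hand for 22 of the 28 genes in 24 windows and not for the other 6, the called gene *Polr3d* included. The GC box GGGCGG was present on either strand in 15 of 24 windows (62.5%, against 35.7% of all 32851 promoters). The E-box CACGTG, to which MYC and MAX bind, was present in 4 (16.7%, against 7.15%), those of *Polr2h*, *Polr3c*, *Polr3e*, and *Polr3gl*. The CCAAT box was found in 7 (29.2%, against 37.4%) and the TATA box TATAAA in 2 (8.33%, against 13.6%). No test was made of these shares. Below are the windows of *Polr1b* (chr2:129100746-129101045, plus strand) and *Polr2f* (chr15:79141075-79141374, plus strand), both called lower, and of *Polr2a* (chr11:69758584-69758883, minus strand), whose level hardly differed. Capitals mark matches to the 4 motifs.
Polr1b: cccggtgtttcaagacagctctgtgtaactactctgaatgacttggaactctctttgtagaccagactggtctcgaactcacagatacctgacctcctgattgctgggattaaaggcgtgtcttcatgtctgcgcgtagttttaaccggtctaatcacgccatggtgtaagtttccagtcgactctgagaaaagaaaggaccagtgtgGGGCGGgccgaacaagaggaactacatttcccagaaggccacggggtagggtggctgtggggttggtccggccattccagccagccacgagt
Polr2f: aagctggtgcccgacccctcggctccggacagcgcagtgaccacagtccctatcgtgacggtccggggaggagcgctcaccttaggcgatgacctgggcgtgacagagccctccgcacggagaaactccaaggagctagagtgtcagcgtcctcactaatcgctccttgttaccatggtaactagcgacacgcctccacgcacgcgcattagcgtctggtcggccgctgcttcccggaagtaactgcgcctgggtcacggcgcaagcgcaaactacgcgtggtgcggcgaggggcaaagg
Polr2a: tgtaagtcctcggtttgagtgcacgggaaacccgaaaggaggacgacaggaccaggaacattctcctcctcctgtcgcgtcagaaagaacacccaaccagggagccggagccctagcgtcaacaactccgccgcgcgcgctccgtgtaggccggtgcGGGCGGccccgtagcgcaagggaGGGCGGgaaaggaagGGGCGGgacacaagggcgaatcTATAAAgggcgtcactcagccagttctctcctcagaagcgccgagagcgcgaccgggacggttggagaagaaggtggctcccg

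The window of *Polr1b* held a GC box 42 bases before the start, and that of *Polr2f* held none of the 4 motifs. The *Polr2f* window begins at 79141075, after the GENCODE start of the gene at 79141009. It therefore lies inside the gene as GENCODE gives it, and the bases before that start were not searched. The window of *Polr2a* held 3 GC boxes and a TATA box 33 bases before the start. No match among these says only that the letters are absent from the window.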

How the data were processed

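Gene expression was measured by 3′ RNA-seq (QuantSeq FWD with UMI) in 7 libraries. The authors trimmed reads with cutadapt 2.10, mapped them to GRCm38 with STAR 2.5.3a, collapsed fragments with UMI-tools 1.0.0, and assigned them to genes by featureCounts (Subread 2.0.0), and the deposited values are these raw counts for 55367 gene symbols. Reads start at poly(A) tails, so gene length does not enter a level, while the annotated 3′ end does.

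Libraries were grouped by sample title, although a legend in the paper gives the group sizes the other way round. Counts were TMM-normalized and tested with edgeR 4.0.16 (glmQLFit, glmQLFTest) in R 4.3.3 without covariates, over the 12623 genes whose counts averaged 5 or more, with Benjamini-Hochberg adjustment. The test was checked on simulated data. Means ± SD are of TMM-normalized CPM, and intervals are from the fitted standard errors. The SD of 3 or 4 libraries is itself imprecise, and floors cover counting error only. Alternatives were other scalings and filters, DESeq2 1.42.0, limma-voom 3.58.1, the replicate number as a block, and leaving out each library. Coordinates and overlaps come from GENCODE vM21, to which 28 of 28 members matched by symbol, and 3′ ends were compared with blast 2.17.0. Plots used matplotlib 3.10.9 in Python 3.11.15.

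The members, lists, and motifs were chosen with earlier results of these data known. Every member entered the counts and medians, and 1 is not reported here by name. Values per library were given for called members and for those with the highest or lowest fold change of each class, and of each related list the called genes were named. The values per library of *Polr1a*, *Polr2d*, *Polr2g*, *Polr2j*, *Polr2k*, *Polr3a*, *Polr3c*, *Polr3e*, *Ubtf*, *Rn7sk*, the marker *Mcpt8*, and *Cd3eap*, and every uncalled related gene named, were added after they were seen. The same holds for the counts of *Rpph1* and of the markers *Cpa3*, *Cd40lg*, and *Zbtb7b*.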

Additional observations from a re-analysis of the deposited data

How the results depend on the processing

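The negative direction of the called genes *Polr1b*, *Polr2f*, and *Polr3d* held in all 15 alternative settings, and the median over the 28 genes stayed between -0.24 and -0.15. The number called lower, 3 over all libraries, was 3 with other scalings, filterByExpr, DESeq2, and limma-voom and 4 without a filter on counts, where *Polr2h* was added and the Polr2 genes held 2. Over the 7 fits with a library dropped it was 1 to 5, and 1 to 2 for Polr1, 0 to 3 for Polr2, and 0 to 2 for Polr3 genes. The lowest value came without LME-sEV library 2 and the highest without HCME-sEV library 1 or 3. Over all genes, calls in either direction were 391, 962, and 1305 in these fits, against 1131 over all libraries. No member was called higher in any setting. In these fits the Polr2 median was -0.26 to -0.11, and the value nearest 0 came without LME-sEV library 3. Of the related genes 10 were called lower, 5 with scaling by library size only, and 3 to 14 in the fits with a library dropped. The number was 15 with the replicate number as a block, where calls rose over all genes too. Scaling by library size moved the median of all genes by less than 0.1, to 0.055.

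With the replicate number as a block, 7 members were called lower, 5 of them Polr2 genes, with *Polr2d*, *Polr2g*, *Polr2h*, and *Polr2k* added to the 3. Calls rose over all genes too, with 1454 of 12623 called in either direction, against 1131 without the block. Libraries with the same number 1, 2, or 3 had correlated deviations from their group means of r = 0.072, 0.15, and 0.027 over genes, which are not independent, and LME-sEV library 1 correlated better with HCME-sEV library 3 (0.080), so the numbers were not taken to pair the libraries.

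The sign reversed for 4 genes near 0. For *Polr1d* the log2 fold change became 0.0011 with scaling by library size only, 0.011 when HCME-sEV library 1 was dropped, and 0.00031 when LME-sEV library 1 was dropped, and over the dropped libraries it ran from -0.083 to 0.011. That of *Polr2a* ran from -0.0013 (HCME-sEV library 1 dropped) to 0.066, that of *Polr3c* from -0.070 (LME-sEV library 2) to 0.14, and that of *Polr3gl* from -0.13 (LME-sEV library 3) to 0.29. None of the 4 was called in any setting. The cause of these shifts was not tested. Depth limits *Polr3gl* most, with 25 to 62 counts per library.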
